A study of Rattus norvegicus with 4 samples.

Results

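The genes described here are those with which absorptive enterocytes take up dietary fat and cholesterol, measured in rat small intestine. Of the 10 genes named, 9 (Cd36, Slc27a4, Fabp1, Fabp2, Dgat1, Dgat2, Npc1l1, Abcg5 and Abcg8) had at least 1 gene probe carrying the gene's name on the array, which gave 15 probes of 41012. The tenth, Mogat2, had no probe under its name. One probe whose annotation carries the gene ID that RefSeq pairs with Mogat2 is shown beside the others and is left out of every count. Members were matched to probes by gene name, and the list was chosen with earlier results of these data known.

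In the intestine, fat is absorbed as fatty acids and monoacylglycerol, which enterocytes rebuild into triacylglycerol and export in chylomicrons. Cholesterol enters from the lumen through Npc1l1, and plant sterols and part of the cholesterol are pumped back by a transporter made of Abcg5 and Abcg8. These activities are known as functions of the mature villus enterocyte and are not evenly spread along the length of the small intestine.

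Total RNA came from the small intestine, without its Peyer's patches, of male Wistar rats that were 3 weeks old when the treatment began. For 12 weeks the control rats drank tap water, and the compost rats drank tap water holding 1% by volume of an extract of a fermented compost. Each group has 2 samples, labelled as taken from individual rats, and no other treatment or genetic change is given for either group. The labels do not say from which stretch of the small intestine the tissue came. RNA was labelled with Cy3 and read on 4 one-colour Agilent arrays of one slide.

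The arrays differed in brightness: the median spot intensity was 80.8 to 113, 66.5% to 71.0% of spots were well above background, and compost rat 1 was the brightest. Values below are either processed intensities or log2 intensities relative to the 75th percentile of the same array, here called scaled log2 values. Differences are compost minus control on that log2 scale, with the standard error (SE) of limma's moderated test, and the adjusted p uses the Benjamini-Hochberg method over all 28415 probes kept. No probe on the array passed an adjusted p of 0.05 (0 of 28415, 0%), and 913 probes (3.21%) had an unadjusted p under 0.05. With 2 rats against 2 the exact permutation test cannot go below p = 0.333. The precision is set by that number of arrays. The control arrays lay at positions 1 and 2 of the slide and the compost arrays at positions 3 and 4, so position and group cannot be told apart.

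Every member probe that could be tested had a lower mean in the compost rats, and none passed the test. Of the 15 probes, 14 were tested, which needed a signal well over background on 2 or more arrays, and all 14 had a log2 difference below 0, where 53.8% of all probes kept did. The groups were apart, with compost below, for 3 of the 14 probes, against 15.5% of all probes kept. They were apart with compost above for 0 of the 14, against 12.4%. Counted by the probe with the highest mean, the 9 genes had a median difference of -0.44, a control level 1.36-fold that of compost. Their range was -1.75 to -0.20, and the median over 24241 genes and unnamed transcripts was -0.02. The members' median was -0.26 over the 14 probes, and -0.39 over genes with all probes of a gene averaged. These values rest in part on single rats. Without control rat 1, 10 of the 14 probes and 5 of the 9 genes had a lower mean in compost, and the median over genes was -0.20. Without compost rat 1 the median was -0.13, with 11 probes and 7 genes lower. Without control rat 2 it was -0.70. No member probe had an unadjusted p under 0.05, and the adjusted p was 1.00 for each.

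**Figure D1:**
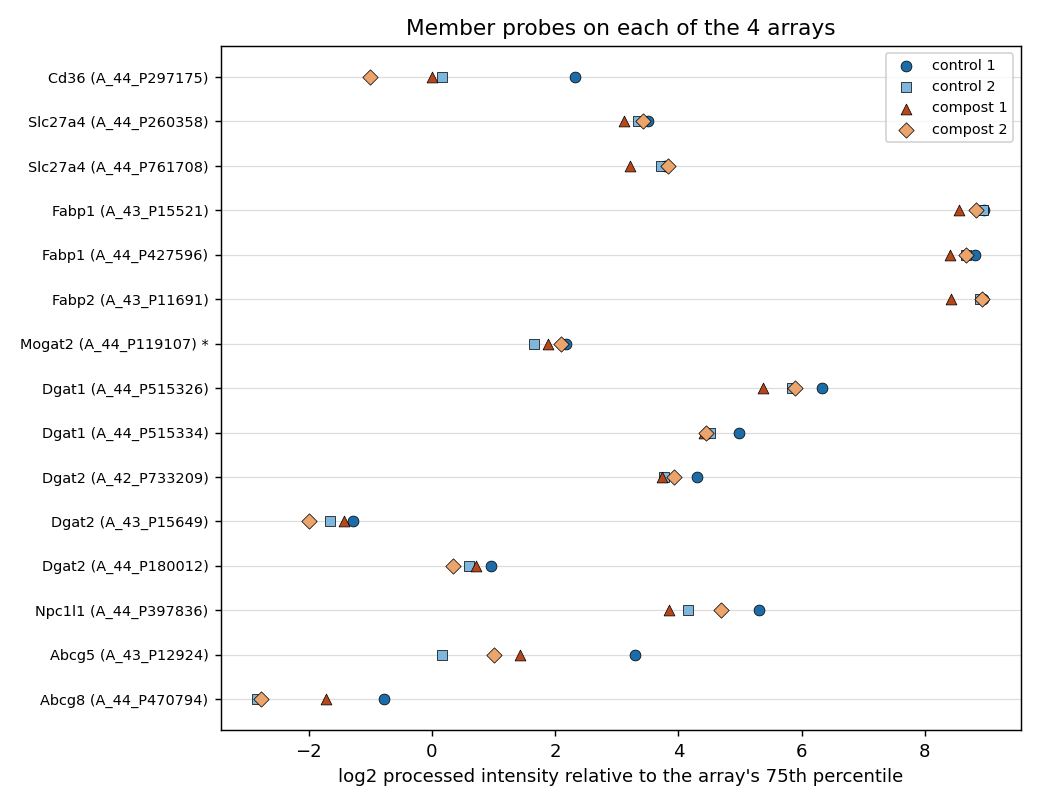
Scaled log2 intensity (horizontal axis, log2 relative to the array's 75th percentile) of each member probe on the 4 arrays, 1 point per rat, with control in blue and compost in orange. The asterisk marks the Mogat2 probe, which does not carry the gene's name. Control rat 1 is the highest point for 13 of the 14 counted probes, and positions on the axis are not comparable between probes.

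Cd36, a scavenger receptor that binds long-chain fatty acids at the cell surface, had the lowest difference of the members. Its probe, printed as 10 spots per array, read 3854 and 854 in the control rats and 984 and 365 in the compost rats. The scaled log2 values were 2.32 and 0.17 in control and -0.0048 and -0.999 in compost. Compost rat 1 lay just under control rat 2, so the groups did not overlap, but control rat 1 stood far above the other 3 rats. The difference was -1.75 ± 0.80 SE (control 3.36-fold over compost, n = 2 and 2, limma unadjusted p = 0.0844, adjusted p = 1.00, 95% interval -3.85 to 0.35). The control rats were 4.46-fold apart, more than the groups were. Without control rat 1 the difference was -0.67, and without control rat 2 it was -2.83.

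Spread between spots was small beside the spread between rats. The 10 Cd36 spots had a standard deviation of 0.09, 0.10 and 0.07 log2 units in control rats 1 and 2 and compost rat 2. It was 0.37 in compost rat 1, where 1 spot read 479 and the other 9 read 986 to 1142. With the median over spots in place of the mean, an alternative chosen after seeing the data, the difference was -1.72. RefSeq also annotates Cd36l1 and Cd36-ps1 near Cd36 on chromosome 4 of the rat, and whether the probe reads them was not tested.

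The sequence before the start of Cd36 is shown because this gene had the lowest difference. It is taken from RefSeq on GRCr8 and covers 250 bases, chr4:18246332-18246581 on the plus strand. Capitals mark a match to TATAAA, on the minus strand, with its first letter 175 bases before the start.
Cd36: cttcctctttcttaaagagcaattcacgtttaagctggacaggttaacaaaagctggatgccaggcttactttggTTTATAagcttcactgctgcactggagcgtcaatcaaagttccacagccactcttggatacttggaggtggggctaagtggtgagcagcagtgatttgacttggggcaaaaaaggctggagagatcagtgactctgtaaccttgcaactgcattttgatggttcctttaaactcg

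Slc27a4, also called FATP4, is a fatty acid transport protein that has acyl-CoA synthetase activity. Its processed intensities were close across the rats on both of its probes, and its scaled values were lowest in compost rat 1. The first probe (A_44_P260358) read 8743 and 7700 in control and 8598 and 7839 in compost, and differed by -0.15 ± 0.21 on the scaled log2 values (limma unadjusted p = 0.505, 95% interval -0.69 to 0.39). The second (A_44_P761708) read 10603 and 10035 in control and 9202 and 10371 in compost, and differed by -0.23 ± 0.26 (unadjusted p = 0.431). On the scaled values of this second probe the compost rats were 1.53-fold apart. The groups overlapped on both probes. The second probe was the single member probe on which control rat 1 was not the highest.

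The fatty acid binding proteins of the enterocyte cytosol, Fabp1 (liver type) and Fabp2 (intestinal type), were bright in all 4 rats and differed little. The Fabp1 probe with the higher mean (A_43_P15521) read 383331 and 375298 in control and 371009 and 330089 in compost. Its scaled log2 values were 8.96, 8.95, 8.55 and 8.82 in the same order, so the compost rats lay under the control rats. The difference was -0.27 ± 0.19 (limma unadjusted p = 0.231, 95% interval -0.77 to 0.24). The control rats were 1.01-fold apart and the compost rats 1.21-fold.

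The other Fabp1 probe (A_44_P427596) read 347127 and 307264 in control and 334176 and 295913 in compost, with a difference of -0.20 ± 0.20 (limma unadjusted p = 0.355). Its groups overlapped, so the probes of Fabp1 differed in whether the rats separated. Fabp2 read 378015 and 363044 in control and 337449 and 355932 in compost, with scaled log2 values of 8.94, 8.90, 8.42 and 8.93. It differed by -0.25 ± 0.24 (unadjusted p = 0.358, 95% interval -0.88 to 0.39), and the groups overlapped. On each of these 3 probes compost rat 1 had the lowest scaled value, while compost rat 2 lay close to the control rats.

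The array of compost rat 1 had a 75th percentile 0.39 log2 units above the mean of the other 3 arrays. With quantile scaling in place of the 75th percentile, the differences were -0.11 and -0.08 for the Fabp1 probes and -0.11 for Fabp2. Without compost rat 1, Fabp2 differed by 0.01 and the Fabp1 probes by -0.13 and -0.07. No spot of any member was saturated on any array, and Fabp1, Fabp2 and Dgat1 were read from the scan at low gain on all 4. Npc1l1 was read at low gain in control rat 1 alone.

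The sequences before Fabp1 and Fabp2 are shown because they belong to related genes that differed little between the rats. They come from RefSeq on GRCr8, chr4:104749090-104749339 for Fabp1 and chr2:213724379-213724628 for Fabp2, both 250 bases on the plus strand. Capitals mark motifs searched on both strands. These were AGGTCA, a core site of nuclear receptors, CAAAGTCCA, a site of the receptor HNF4, AGATAA, a site of the GATA family, GTTAAT, part of the site of HNF1, and the TATA box letters TATAAA.
Fabp1: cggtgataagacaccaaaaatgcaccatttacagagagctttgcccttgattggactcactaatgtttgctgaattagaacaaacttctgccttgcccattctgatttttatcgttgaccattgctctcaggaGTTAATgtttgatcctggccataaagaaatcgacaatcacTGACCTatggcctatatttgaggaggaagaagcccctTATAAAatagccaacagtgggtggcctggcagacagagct
Fabp2: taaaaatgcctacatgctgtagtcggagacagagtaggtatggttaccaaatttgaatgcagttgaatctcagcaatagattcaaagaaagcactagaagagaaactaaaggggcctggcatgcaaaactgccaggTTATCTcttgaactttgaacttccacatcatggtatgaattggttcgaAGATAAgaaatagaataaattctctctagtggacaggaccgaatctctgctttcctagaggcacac

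In Fabp1 a match to GTTAAT began 117 bases before the start, one to AGGTCA on the minus strand 77 bases before it and one to TATAAA 40 bases before it. Fabp2 held AGATAA 2 times, at 114 bases on the minus strand and 66 on the plus strand. Among 33469 RefSeq promoter windows of 300 bases, AGATAA occurred in 11.6%, AGGTCA in 16.2%, GTTAAT in 7.45%, TATAAA in 14.2% and CAAAGTCCA in 0.391%. Windows were listed for 7 of the 10 members. CAAAGTCCA was in none of these 7 windows, and Slc27a4 held no match to any motif. Npc1l1 held GTTAAT at 167 bases, on the strand opposite to the gene's own. The motifs do not overlap in the sequences shown. A match is a description of letters and not a bound site.

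The acyltransferases that rebuild triacylglycerol lay lower on average in compost on all 5 probes under their own names. Dgat1 and Dgat2 are unrelated enzymes that add the last fatty acid. The first Dgat1 probe (A_44_P515326) read 61960 and 43474 in control and 40995 and 43254 in compost, and its scaled log2 values were 6.33, 5.84, 5.38 and 5.89. It differed by -0.45 ± 0.29 (limma unadjusted p = 0.185, 95% interval -1.22 to 0.31), with compost rat 2 between the control rats. The second Dgat1 probe (A_44_P515334) read 24376 and 17374 in control and 21078 and 15827 in compost. It differed by -0.32 ± 0.23 (unadjusted p = 0.227), and on the scaled values the compost rats lay under the control rats.

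Control rat 1 was the highest on both Dgat1 probes, and without it the differences were -0.20 and -0.09. The Dgat2 probe with the highest mean (A_42_P733209) read 15199 and 10309 in control and 13094 and 11110 in compost, and differed by -0.20 ± 0.26 (limma unadjusted p = 0.466). The other Dgat2 probes read 318 and 242 against 368 and 184 (A_43_P15649) and 1492 and 1153 against 1626 and 923 (A_44_P180012). Their differences were -0.24 ± 0.28 and -0.25 ± 0.24 on the scaled log2 values, so the 3 Dgat2 probes gave like differences, and the groups overlapped on each. Without control rat 1 the first Dgat2 probe differed by 0.07 and the others by -0.05 and -0.07.

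Mogat2, also called MGAT2, joins a fatty acid to monoacylglycerol ahead of the step of Dgat1 and Dgat2. The probe paired with it through its gene ID (A_44_P119107) read 3494 and 2393 in control and 3649 and 3115 in compost. It differed by 0.07 ± 0.25 (limma unadjusted p = 0.789, 95% interval -0.60 to 0.74), and both compost rats lay between the control rats on the scaled values.

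**Figure D2:**
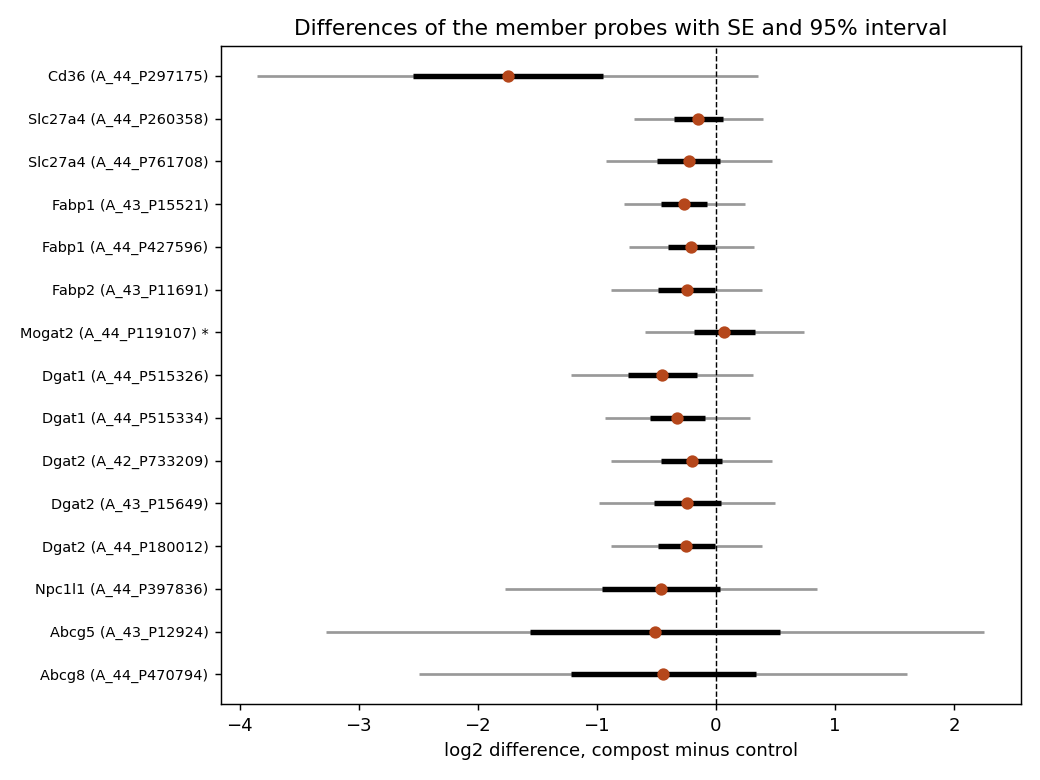
Log2 difference, compost minus control, of each member probe (point), with its SE (black bar) and 95% interval from limma (grey bar). The asterisk marks the Mogat2 probe. The interval of every probe reaches both sides of 0, and it is widest for Abcg5 (-3.28 to 2.25), Cd36 and Abcg8.

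Npc1l1, the brush border protein that takes up cholesterol and is the target of ezetimibe, differed more between the control rats than between the groups. It read 30359 and 13523 in control and 14233 and 18766 in compost. The reading of control rat 1 alone came from the scan at low gain, and the part of this in its value was not tested. The scaled log2 values were 5.30 and 4.15 in control and 3.85 and 4.69 in compost, so compost rat 2 lay between the control rats. The difference was -0.46 ± 0.50 (limma unadjusted p = 0.401, adjusted p = 1.00, 95% interval -1.77 to 0.85). Without control rat 1 it was 0.11, and without control rat 2 it was -1.03.

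Abcg5 and Abcg8 are the subunits of the sterol efflux pump, encoded by neighbouring genes that run in opposite directions. Their values had the same rat at the top and the same rat second. Abcg5 read 7549 and 853 in control and 2664 and 1463 in compost, which is 3.29, 0.17, 1.43 and 1.01 on the scaled log2 values. Abcg8 (A_44_P470794) read 449 and 107 in control and 302 and 106 in compost, which is -0.78, -2.83, -1.71 and -2.78. On these log2 values control rat 1 was the highest, compost rat 1 the second and control rat 2 the lowest for both genes.

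The groups overlapped for both, with the compost rats inside the range of the control rats. Abcg5 differed by -0.51 ± 1.05 (limma unadjusted p = 0.649) and Abcg8 by -0.44 ± 0.78 (unadjusted p = 0.598, 95% interval -2.49 to 1.61). The control rats were 8.74-fold apart in Abcg5 and 4.15-fold apart in Abcg8. The compost rats were 1.34-fold and 2.10-fold apart. Without control rat 1 the direction turned, to 1.05 for Abcg5 and 0.59 for Abcg8, and without control rat 2 the differences were -2.08 and -1.47. The other Abcg8 probe (A_44_P434455) read 3.31 to 4.21 and was not well above background on any array, so it was not tested and gives no fold.

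The sequence between the starts of Abcg5 and Abcg8 is shown because both genes are read outward from it. It covers 205 bases, chr6:15717731-15717935, from RefSeq on GRCr8, written on the plus strand with Abcg8 to the left on the minus strand and Abcg5 to the right. The 300-base windows of the genes share 295 bases. Capitals mark 1 match to TATAAA and 2 to AGATAA.
Abcg5-Abcg8: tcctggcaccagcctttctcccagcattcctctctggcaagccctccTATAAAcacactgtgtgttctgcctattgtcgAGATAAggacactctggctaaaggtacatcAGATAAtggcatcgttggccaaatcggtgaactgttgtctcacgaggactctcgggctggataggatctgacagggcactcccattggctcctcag

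Counted from the start of Abcg5 the AGATAA matches begin 126 and 96 bases upstream. Counted from Abcg8, on the other strand, the same matches in the same order begin 85 and 115 bases upstream. The TATAAA match begins 158 bases before Abcg5 and 53 before Abcg8. It lies on the plus strand of the chromosome, opposite to the strand of Abcg8. The deposited arrays hold no measurement of binding at this sequence.

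The control rats differed widely for some members. For 4 of the 14 probes (28.6%), those of Cd36, Npc1l1, Abcg5 and Abcg8, the control rats were at least 1 log2 unit apart, against 4.6% of all probes kept. The compost rats were that far apart for 1 of the 14 (7.14%, Abcg8), against 8.11%. For all 14 probes 1 pair of rats of a group was further apart than the group means, as for 83.2% of all probes kept. Control rat 1 was the highest of the 4 rats on 13 of the 14 probes (92.9%) and on 22.4% of all probes kept. Compost rat 1 was the lowest on 9 of the 14 (64.3%), against 36.6%. These shares are descriptions, since probes of a gene and genes of a pathway are not independent.

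The median of the 9 genes' centred profiles was 0.47 in control rat 1, -0.17 in control rat 2, -0.38 in compost rat 1 and 0.00 in compost rat 2. Of 11395 named genes outside the members, those with the smallest root mean square distance from that profile were Macrod1, Slc4a11, Pgm1, Or1f30 and Ccnd2, at 0.03 to 0.04 log2 units. That likeness rests on 4 arrays.

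Markers of position along the intestine did not all place control rat 1 in the same way. It was the highest rat for 3 of the 4 proximal markers measured, while for Cybrd1, the fourth, compost rat 1 was the highest. Among 6 distal markers measured it was the lowest for 2 and the highest for 1, Cubn. The folate transporter gene Slc46a1, a proximal marker, had scaled log2 values of -0.66 in control rat 1 and -3.57 in control rat 2, against -3.65 and -3.89 in compost (-1.66 ± 0.97, limma unadjusted p = 0.154, and -0.20 without control rat 1). Gata4, a transcription factor of the proximal intestine, was well above background in control rat 1 alone, so it was not among the 4. It read 461 in control rat 1, 3.87 in control rat 2 and 4.34 and 8.11 in compost. Pdx1, among the 4, was well above background in control rat 1 and compost rat 1 only. Slc10a2, the ileal bile acid transporter, was lowest in control rat 1, at 5.06, and lay at 5.89 in control rat 2 and at 5.54 and 6.03 in compost. Cubn lay at 2.83 in control rat 1, 1.62 in control rat 2 and 1.10 and 1.72 in compost. Of the 6 proximal markers 4 were measured (2 with a higher and 2 with a lower mean in compost, summed level 1.52 to 2.63 in control and 1.69 to 3.19 in compost), and of the 7 distal markers 6 (3 higher and 3 lower, 1111 to 1146 and 896 to 1215). The summed level is the sum of unlogged intensities relative to the array's 75th percentile, so the brightest gene of a list weighs most. That gene was Cybrd1 in the proximal list (scaled log2 0.45 to 1.59) and Fabp6 in the distal list (9.46 to 9.93). The part of these markers in the members' values was not tested.

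**Figure D3:**
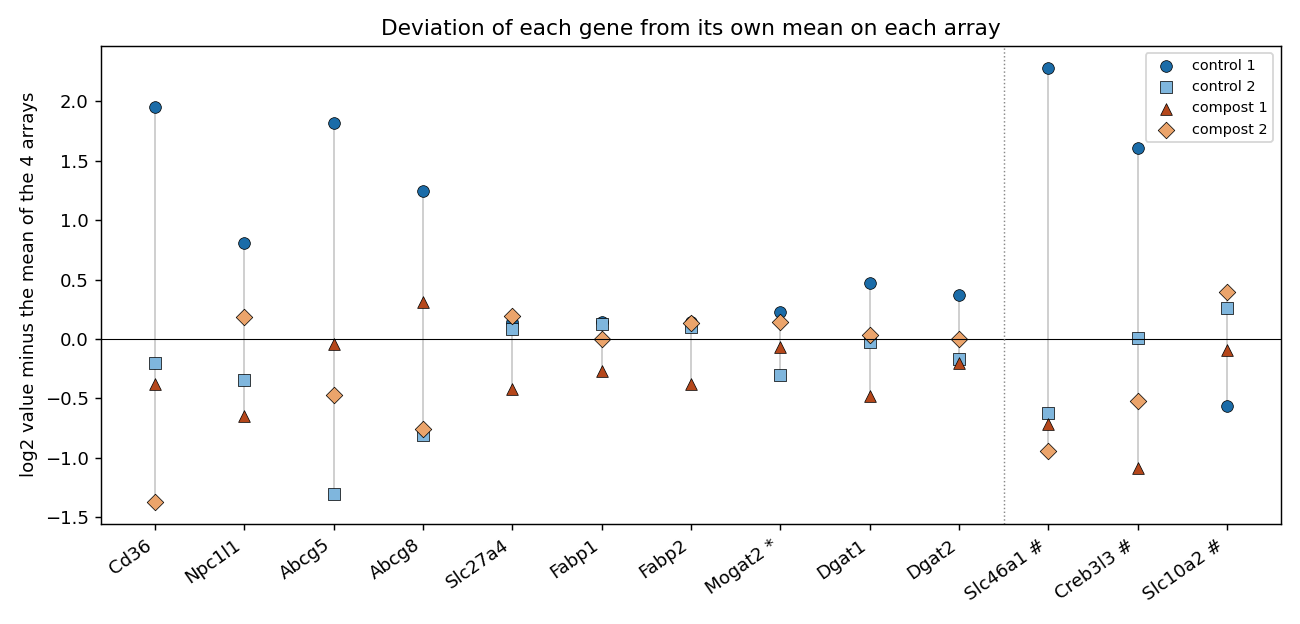
Scaled log2 value of each gene on each array minus the mean of its 4 arrays (vertical axis, log2 units), 1 point per rat, with each gene by its probe with the highest mean. The asterisk marks Mogat2, and # to the right of the dotted line marks 3 genes that are not members. Control rat 1 stands above the other rats for Cd36, Npc1l1, Abcg5 and Abcg8 and for Slc46a1 and Creb3l3, and below them for Slc10a2. The position markers Slc46a1 and Slc10a2 were chosen after their values were seen. Not shown are the proximal marker Cybrd1, highest in compost rat 1, and the distal marker Cubn, highest in control rat 1.

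Markers of the enterocyte brush border had lower means in compost, and general epithelial markers were split. Of 12 brush border genes 9 were well above background on all 4 arrays. All 9 had a lower mean in compost (median -0.46), and for 6 of them the groups were apart with compost lower, against 15.5% of all probes kept. Among these 9, control rat 1 was the highest rat for all but Dpp4 and Enpep, against 22.4% of all probes kept. The summed level was 635 to 661 in control and 474 to 537 in compost. That sum also takes in Lct and Alpi, lactase and intestinal alkaline phosphatase, which were kept through the control rats alone, so their lower place in compost was fixed by the filter. Lct lay at -2.99 and -4.20 in control and Alpi at -1.87 and -4.50, and neither reached a signal well above background in the compost rats. As the filter fixed their direction, the folds of control over compost for Lct and Alpi are not evidence of a lower level in compost. They give only the least size that the background allows. For Lct this was 4.01-fold (2.63-fold without control rat 1, 6.10-fold without control rat 2). For Alpi it was 5.34-fold (2.14-fold without control rat 1, 13.3-fold without control rat 2). Of the 10 epithelial markers 7 were higher and 3 lower (median 0.08, summed level 1572 to 1580 in control and 1475 to 1816 in compost). None passed the test in either list (0). In tissue RNA fewer enterocytes and less RNA per enterocyte cannot be told apart, and the part of these markers in the members' values was not tested.

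Some members are also made outside the epithelium, Cd36 in fat cells, macrophages and the endothelium. Of the 10 adipocyte markers 7 were measured, 5 higher and 2 lower (summed level 2.60 to 3.92 in control and 2.80 to 4.78 in compost). The fat cell markers Lep, Plin1 and Pnpla3 were not well above background on any array. All 9 macrophage markers were measured, 8 higher and 1 lower (14.4 to 19.1 and 17.1 to 26.9), and 8 of the 9 endothelial markers, 6 higher and 2 lower (11.9 to 22.8 and 15.1 to 20.6). All 7 measured of the 10 markers of B and plasma cells were higher (2.76 to 4.22 and 7.12 to 11.5). Smooth muscle markers (6 of 8) were 5 higher and 1 lower, T cell markers (6 of 8) 5 higher and 1 lower, and pancreatic acinar markers (4 of 8) 1 higher and 3 lower. Ms4a1 (B cells) and Pecam1 (endothelium) were kept through the compost rats alone, so their higher place in compost was fixed by the filter. Cela2a (acinar) was kept through the control rats alone, so its lower place in compost was fixed as well. The part of all these cell type markers in the values of Cd36 was not tested.

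Genes that act beside the members did not all lie lower. Among genes of fatty acid activation, re-esterification and lipid droplets, 21 of 22 were measured, 7 higher and 14 lower, with a median of -0.17 and 0 past the test. The smallest unadjusted p was that of Acsl4, an acyl-CoA synthetase, at 0.55 ± 0.18 (limma unadjusted p = 0.0295, adjusted p = 1.00). Mttp, which loads lipid onto apolipoprotein B, had scaled log2 values of 5.83 and 5.34 in control and 4.64 and 5.14 in compost (-0.69 ± 0.29). It differed by -0.45 without control rat 1 and by -0.44 without compost rat 1. The acyltransferase gene Agpat3 differed by 0.41 ± 0.20, and Fitm2, which acts in lipid droplet formation, by -0.40 ± 0.20.

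Genes of cholesterol handling and sterol sensing, with targets of the sterol receptor LXR, were split. Of 24 genes 23 were measured, 12 higher and 11 lower, with a median of 0.06 and 0 past the test. The raft protein gene Flot2 differed by 0.54 ± 0.25 (limma, adjusted p = 1.00), and by 0.30 without control rat 1. Soat2, which esterifies absorbed cholesterol, differed by -0.41 ± 0.21, and by -0.22 without control rat 1. Lima1, a partner of Npc1l1, differed by -0.35 ± 0.18.

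Paralogues of the members lay higher on average. Of 16 genes 10 were measured, 8 higher and 2 lower (median 0.18, and 0.10 with normexp background correction). Fabp5, Fabp3, Slc27a2 and Fabp4 had the smallest unadjusted p, with differences of 0.24 ± 0.19, 0.24 ± 0.26, 0.39 ± 0.42 and 0.30 ± 0.37. Fabp3 turned to -0.04 without control rat 1, Slc27a2 to -0.11 without control rat 2 and Fabp4 to -0.15 without compost rat 1. None of the 10 passed the test.

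Transcription factors that regulate enterocyte lipid genes lay mostly lower. Of 17 genes 14 were measured, 2 higher and 12 lower, with a median of -0.17 and 0 past the test. Creb3l3, a membrane-bound factor of fat metabolism in liver and intestine, lay at 6.04 and 4.44 in control and 3.35 and 3.91 in compost (-1.61 ± 0.58, limma unadjusted p = 0.0430, adjusted p = 1.00). Creb3l3 differed by -0.81 without control rat 1 and by -2.41 without control rat 2. The coactivator gene Ppargc1a lay at -2.52 and -3.35 in control and -4.34 and -3.81 in compost (-1.14 ± 0.37, limma unadjusted p = 0.0290). Ppargc1a differed by -0.73 without control rat 1 and by -0.68 with normexp background correction. Control rat 1 was the highest of the 4 for Creb3l3 and Ppargc1a. Nr5a2 differed by -0.44 ± 0.23 and the bile acid receptor gene Nr1h4 by 0.60 ± 0.36, with limma adjusted p = 1.00 for each. Without control rat 1 Nr1h4 differed by 0.13, and without control rat 2 Nr5a2 differed by -0.21.

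**Figure D4:**
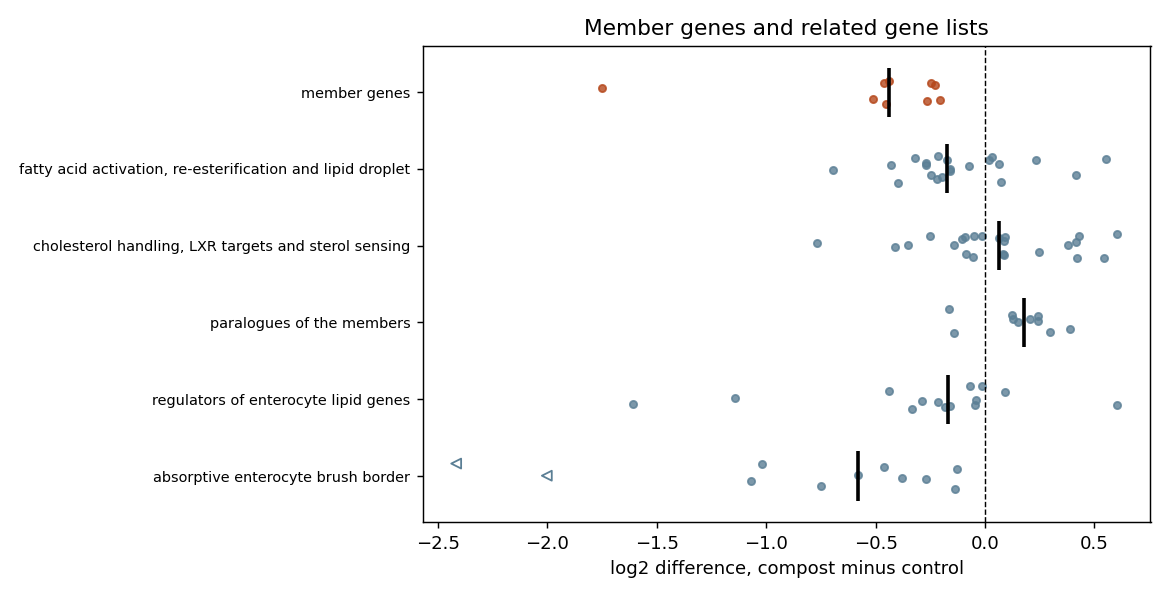
Log2 difference, compost minus control, of the 9 member genes and of genes in 5 related lists (1 point per gene, by its probe with the highest mean; black bar, list median). Open triangles are the least difference that the brush border genes Alpi and Lct allow, since neither was well above background in compost. The filter fixed their place below 0, and both are in that list's median of -0.58. For the 9 brush border genes well above background on every array the median was -0.46. All 9 member genes lie below 0, with Cd36 at -1.75, while the cholesterol list spreads to both sides.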

How the data were processed

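The files hold the deposited scanner intensity of each spot on 4 one-colour Agilent rat arrays, made by Agilent Feature Extraction 9.1.3.1 per the submitters' processing notes. The deposited table of processed intensity values differed from the scanner values by at most 0.497% and served as an alternative. Processed intensities, already background-corrected by the scanner software per the file headers, were used as given. Outlier and control spots were left out, spots of a probe were averaged, log2 was taken and each array's 75th percentile was subtracted. The 28415 of 40981 probes with a signal well over background on 2 or more arrays were fitted with limma 3.58.1 in R 4.3.3 (lmFit, eBayes), all 4 arrays together, two-sided, with a Benjamini-Hochberg threshold of 0.05. The fit alone, without the averaging, scaling and filter steps, was tested on simulated data with known shifts. A gene stood for its kept probe with the highest mean. Every member probe was named, with up to 4 genes of smallest unadjusted p per pathway list and the 5 genes nearest in profile (1 list gene is not reported here), and marker genes named beyond that rule were chosen after their values were seen. Probe names were updated through RefSeq (GRCr8): 11000 by accession, 1791 by gene ID, 5181 by symbol and 3455 by synonym, while 19585 kept the file's name. The members and lists were chosen with earlier results of these data known. Alternatives were normexp background correction (offset 50), other scaling, filters and variance estimates, a replicate block, the deposited table, all probes of a gene, and leaving out each array. Nothing says whether rats shared a litter or cage.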

Additional observations from a re-analysis of the deposited data

How the results depend on the processing

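Alternatives that kept all 4 arrays turned the direction of 0 of 121 values of the member probes, Mogat2 included, and put 0 member probes past the threshold. The other filters, the other variance estimate and the replicate block use the same scaled values, so the differences under them could not move. For these the 0 was fixed in advance, and only the other alternatives could turn a direction. All 11 reversals among the member probes came from leaving out 1 array. Over the arrays left out, the difference ranged from -2.08 to 1.05 for Abcg5, -1.47 to 0.59 for Abcg8 (0.09 without compost replicate 2), -1.03 to 0.11 for Npc1l1, -0.50 to 0.012 for Fabp2 and -0.19 to 0.34 for Mogat2 (-0.03 without compost replicate 2). It ranged from -0.47 to 0.068 and -0.52 to 0.040 for the first and second Dgat2 probes, and from -0.30 to 0.0038 and -0.53 to 0.077 for the Slc27a4 probes. The reversals of Abcg5, Npc1l1 and the first Dgat2 probe came without control replicate 1, and those of Fabp2 and Slc27a4 without compost replicate 1. In the same way the members' median ranged from -0.70 to -0.13, the genes lower from 5 to 9, those apart with compost lower from 2 to 8 and those apart with compost higher from 0 to 2, and the probes with an unadjusted p under 0.05 from 0 to 3. With 1 array left out, 29% to 42.7% of all probes kept were apart with compost lower and 22% to 36.4% with compost higher, so groups were apart more often than with 4 arrays. The number of member probes with an unadjusted p under 0.05 was 1 with normexp (Cd36, -1.62). With all probes of a gene averaged, 3 genes were apart with compost lower.

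The list medians ranged from -0.29 to -0.082 for fatty acid activation, 0.058 to 0.16 for the paralogues (0.10 with normexp) and -0.26 to -0.11 for the regulators. Fabp3 ranged from -0.042 to 0.53, Slc27a2 from -0.11 to 0.89 and Fabp4 from -0.15 to 0.75. Over all probes, 1 passed with normexp and 2 without control replicate 2. The cause of these shifts was not tested.

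The deviations of replicate 1 from its group mean had a correlation of -0.04 between control and compost over all probes. With 2 rats per group that value cannot say whether the replicate number marks rats that shared a litter, cage or day. With the number as a replicate block, 1 member probe had an unadjusted p under 0.05, Cd36 at -1.75 ± 0.36 SE, and no call changed.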
